A study of Homo sapiens with 2 samples.

Results

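The matrix metalloproteinases (MMP), the ADAM and ADAMTS metalloproteinases and their tissue inhibitors (TIMP) were followed in 2 tumours grown from NCI-N87 cells. This established line comes from a human stomach carcinoma and carries extra copies of ERBB2, the gene of the receptor HER2. Members were the genes of the deposited table whose symbols are MMP, ADAM or ADAMTS with a number, or TIMP1 to TIMP4, which gave 69 of 29972 genes: 24 MMP, 22 ADAM, 19 ADAMTS and 4 TIMP genes. One tumour was refractory to T-DM1 (trastuzumab emtansine), in which a HER2 antibody carries the microtubule poison DM1, dosed at 3-week intervals over 18 weeks, and the other was untreated. Both grew under the skin of nude mice, which lack mature T cells but keep stroma, vessels and innate immune cells, and both come from a single cell line. Each group is 1 mRNA library, so no difference below has a replicate check, and the labels do not state whether a library came from 1 animal or from several.

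Most of these enzymes share a catalytic domain with a zinc ion at its centre and are made as inactive precursors whose propeptide is removed by convertases or other proteases. MMPs cut collagens, laminins and other matrix proteins, ADAMs are mostly membrane proteins that release the outer parts of growth factors, receptors and adhesion proteins, and ADAMTS enzymes are secreted and cut proteoglycans and procollagens. TIMPs bind the active sites and block them. In carcinomas much of the MMP protein is made by stromal cells, while the matrilysin MMP7 is a typical product of epithelium.

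The refractory library held 59902704 expected counts and the untreated library 75722117. Levels are given as CPM, which sets each count against the library total (with TMM scaling), and comparisons between genes use the deposited FPKM, which adds a division by gene length. All 7 markers of carcinoma epithelium on a list that included ERBB2, EPCAM and KRT8 were present, and 0 of them was past 2-fold. Of 10 human fibroblast markers, 9 were under 1 CPM in both libraries, with summed levels of 2.14 CPM in the refractory and 3.98 CPM in the untreated tumour, and COL1A2, COL3A1, DCN, POSTN and THY1 had 0 counts in both. Of 6 endothelial markers, 5 were under 1 CPM in both libraries, with sums of 0.287 and 2.88 CPM in the refractory and untreated tumours, and CDH5 had 0 counts in both. Of 8 leukocyte markers, 6 were under 1 CPM in both, with sums of 5.16 CPM in the refractory and 0.981 CPM in the untreated tumour, and CD3E and MS4A1 had 0 counts in both. The table lists human genes, and mouse metalloproteinases of the host were not measured here.

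Of the 69 members, 24 reached 1 CPM in at least 1 library and are described. Adding 1 CPM to both libraries, 7 of these 24 passed 2-fold upwards in the refractory tumour and 4 passed 2-fold downwards. Among all 14167 described genes 9.80% were higher by this rule, 10.98% lower and 20.8% either. The described members had a median log2 of refractory over untreated of -0.17, beside 0.03 for all described genes. The sign of that median turned with genes of at least 10 CPM only (0.51, over 14 members) and on the FPKM scale (0.38, over 18 members). By family, 4 of 6 described MMPs were higher and 0 lower, 3 of 9 ADAMs were higher and 2 lower, 0 of 6 ADAMTS genes were higher and 2 lower, and the 3 described TIMPs were all between. Just past the 2-fold limit stood ADAM22 (log2 1.06), and just short of it TIMP4 (log2 -0.98). In bulk tissue, fewer cells that express a gene and less RNA per cell cannot be told apart.

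**Figure D1:**
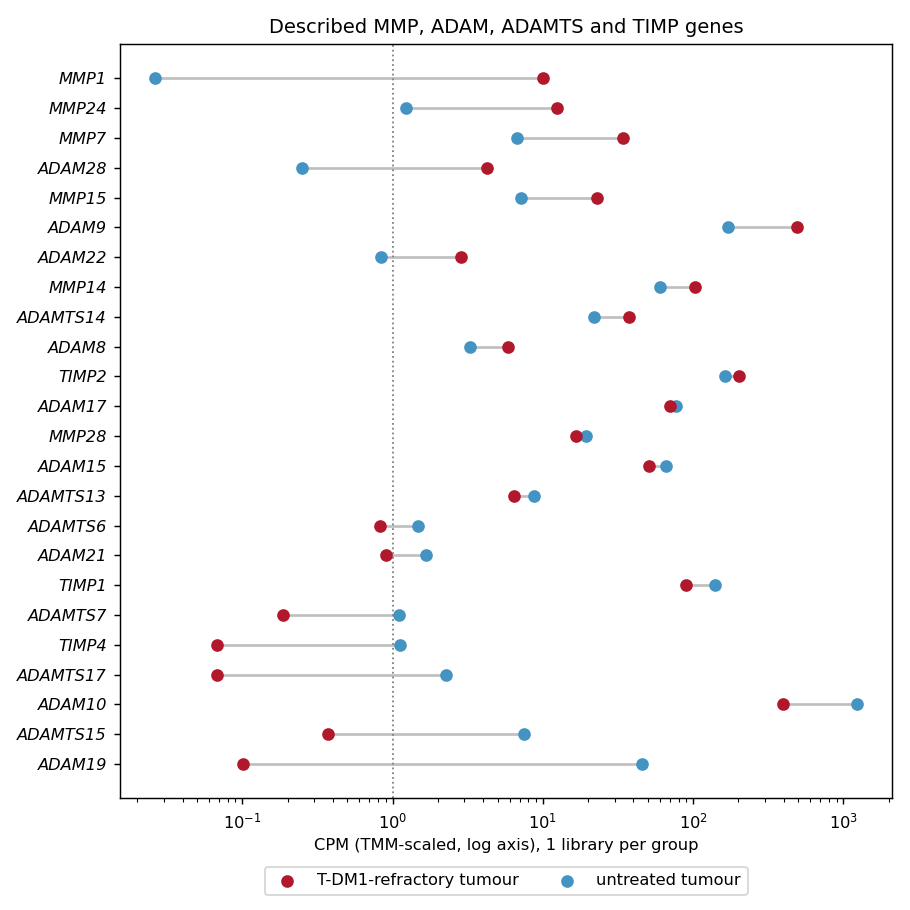
CPM on a log axis for the 24 described members, with the T-DM1-refractory library in red and the untreated library in blue, 1 library per group and a dotted line at 1 CPM. Genes are ordered by log2 with 1 CPM added, from MMP1 at the top, higher in the refractory tumour, to ADAM19 at the bottom, lower in it.

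Of the other 45 members, 16 had 0 counts in both libraries and 29 had counts but stayed under 1 CPM in both, the highest of them ADAM11 at 0.253 CPM in the refractory and 0.916 CPM in the untreated tumour. Both gelatinases, MMP2 and MMP9, which cut type IV collagen, are among these: they had 0 counts in the refractory tumour, against 3 and 6 counts in the untreated tumour. The stromelysins MMP3, MMP10 and MMP11 were also under 1 CPM in both tumours, with a summed level of 1.18 CPM in the refractory and 0.759 CPM in the untreated one. Testis genes such as ADAM2, ADAM18, ADAM29 and ADAM30 had 0 counts in both.

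MMP7 and MMP1, which were both higher, lie in a cluster of MMP genes on the long arm of chromosome 11. The cluster spans 102520508 to 102955734 (GRCh38) and holds 9 members in the order MMP7, MMP20, MMP27, MMP8, MMP10, MMP1, MMP3, MMP12 and MMP13. Its summed level was 45.6 CPM in the refractory and 7.38 CPM in the untreated tumour. Of the 9 genes, 7 had more CPM in the refractory tumour and MMP20 and MMP8 had more in the untreated one, although 7 of the 9 were under 1 CPM in both tumours.

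Upstream sequences are shown for the 4 cluster genes with an entry in the RefSeq promoter table (GRCh38.p14), because cluster MMP promoters are known for a TATA box and for a site of the AP-1 transcription factors. Each line gives the 120 bases before the start of the gene in RefSeq, which can differ from the gene span given elsewhere, 5′ to 3′, with TGANTCA and TATAAA in capitals. All 4 lie on the minus strand: MMP7 at chr11:102530748-102530867, MMP20 at chr11:102625333-102625452, MMP8 at chr11:102724955-102725074 and MMP10 at chr11:102780629-102780748.
MMP7: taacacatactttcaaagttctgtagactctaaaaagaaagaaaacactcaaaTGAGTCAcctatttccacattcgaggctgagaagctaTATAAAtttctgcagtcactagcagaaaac
MMP20: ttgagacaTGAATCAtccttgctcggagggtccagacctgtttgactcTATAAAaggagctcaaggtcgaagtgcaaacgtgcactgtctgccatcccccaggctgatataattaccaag
MMP8: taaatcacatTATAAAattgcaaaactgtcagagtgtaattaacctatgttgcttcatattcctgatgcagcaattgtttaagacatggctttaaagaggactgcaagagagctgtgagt
MMP10: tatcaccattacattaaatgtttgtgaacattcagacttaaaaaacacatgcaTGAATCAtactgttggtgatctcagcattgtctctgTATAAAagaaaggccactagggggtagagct

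Within 250 bases before the start, searched on both strands, TGANTCA occurred in 6.57% of 35116 promoters in the table, TATAAA in 10.7% and both in 1.07%. Of 40 members with an entry, 4 held TGANTCA, 7 held TATAAA, and 3 held both: MMP7, MMP20 and MMP10. The letters found were TGAGTCA in MMP7 and TGAATCA in MMP20 and MMP10, and binding of AP-1 to them was not tested. TATAAA began 72 bases before the start in MMP20 and 110 bases before it in MMP8. In MMP7 and MMP10 the first base of TGANTCA lay 67 bases before the start, and TATAAA began 30 bases before it in MMP7 and 31 bases before it in MMP10. These genes differed in level all the same: MMP7 stood at 34.3 CPM in the refractory and 6.70 CPM in the untreated tumour, MMP10 at 0.320 and 0.131 CPM in the refractory and untreated tumours. MMP20 had 0 counts in the refractory and 3 in the untreated tumour.

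MMP7, matrilysin, a small secreted enzyme without the hemopexin domain of most MMPs, was the most abundant MMP of the refractory tumour by FPKM. It had 2037 counts in the refractory and 512 in the untreated tumour, and the ratio of CPM was 5.13 (95% interval 4.65 to 5.66, counting error only). On the length-scaled values MMP7 reached 41.0 FPKM in the refractory and 8.06 FPKM in the untreated tumour. It made up 41.0% of the summed MMP FPKM in the refractory tumour and 18.3% in the untreated tumour, where MMP14 (41.3%) and MMP28 (33.3%) were ahead of it.

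MMP1, the interstitial collagenase that opens the triple helix of fibrillar collagens (chromosome 11, 102789920 to 102798160, minus strand), had the largest log2 of all members in the upward direction (3.43). It had 595 counts in the refractory tumour and 2 in the untreated tumour, or 10.03 and 0.0262 CPM in the refractory and untreated tumours. The ratio was 383 (95% interval 106 to 3173), wide because the untreated library held so few reads. WTAPP1, a pseudogene annotated on the other strand of MMP1, stood at 1.89 CPM in the refractory and 0.523 CPM in the untreated tumour. MMP13, another collagenase, was at 0.624 CPM in the refractory and 0.432 CPM in the untreated tumour. The macrophage elastase MMP12 had 9 counts in the refractory and 0 in the untreated tumour, at least 3.87-fold higher with the untreated library set to a floor of 3 counts.

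**Figure D2:**
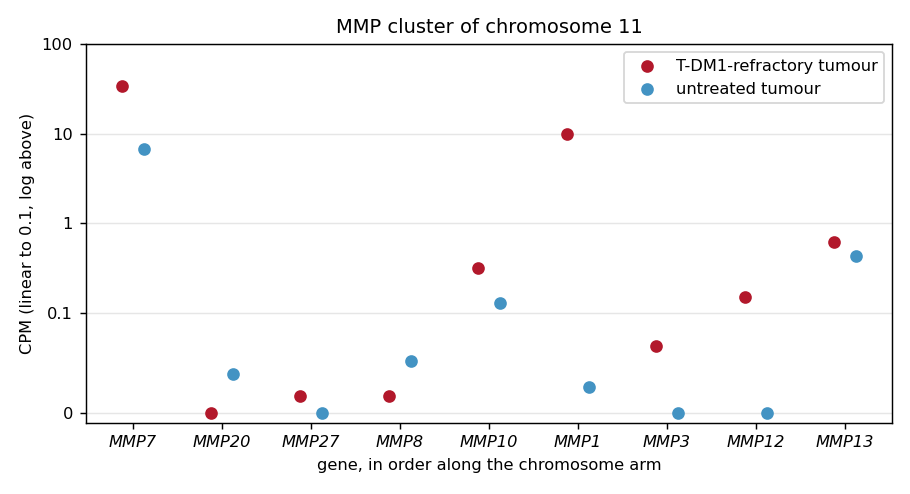
CPM of the 9 cluster MMPs in their order along chromosome 11, on an axis that is linear up to 0.1 CPM and logarithmic above it, with the refractory library in red and the untreated library in blue. MMP7 and MMP1 reach 34.3 and 10.03 CPM in the refractory tumour, and the other 7 genes stay under 1 CPM in both.

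Membrane-type MMPs, which stay anchored at the cell surface, were higher in 2 of 3 described cases and lower in 0, beside 9.80% and 10.98% of all described genes. MMP15 (MT2-MMP; chromosome 16, 58025566 to 58046901) had 1353 counts in the refractory and 548 in the untreated tumour, a ratio of 3.18 (95% interval 2.88 to 3.52). MMP14 (MT1-MMP), the activator of pro-MMP2 and a collagenase in its own right, stood at 103 CPM in the refractory and 59.8 CPM in the untreated tumour, a ratio of 1.72 (95% interval 1.66 to 1.79) that did not reach 2-fold. By FPKM it was still 78.4% of the membrane-type MMP sum in the refractory and 89.3% in the untreated tumour.

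MMP24 (MT5-MMP, best known from neurons; chromosome 20, 35226654 to 35277000) stood at 12.4 CPM in the refractory and 1.23 CPM in the untreated tumour, a ratio of 10.05 (95% interval 8.10 to 12.6). Its level depends on how reads were divided with a gene on the other strand. The expected counts of MMP24 (733.49 in the refractory and 94.17 in the untreated tumour) and of its antisense gene MMP24-AS1 (571.51 in the refractory and 517.83 in the untreated tumour) are not whole, but they add up to 1305 in the refractory and 612 in the untreated tumour. The split between this pair is an estimate, and no source used here says whether the counting used strand. MMP28, epilysin, an enzyme of normal epithelium and keratinocytes, stood at 16.5 CPM in the refractory and 19.3 CPM in the untreated tumour.

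The upstream bases of MMP15 (chr16:58025634-58025753, plus strand) and MMP24 (chr20:35226570-35226689, plus strand) are set here beside those of the 2 lower sheddases ADAM10 (chr15:58749708-58749827, minus strand) and ADAM19 (chr5:157575776-157575895, minus strand) for contrast with the cluster genes.
MMP15: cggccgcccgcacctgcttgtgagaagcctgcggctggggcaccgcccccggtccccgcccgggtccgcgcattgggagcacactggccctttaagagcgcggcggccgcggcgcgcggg
MMP24: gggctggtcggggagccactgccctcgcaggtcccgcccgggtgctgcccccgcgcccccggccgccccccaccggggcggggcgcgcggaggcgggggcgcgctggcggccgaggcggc
ADAM10: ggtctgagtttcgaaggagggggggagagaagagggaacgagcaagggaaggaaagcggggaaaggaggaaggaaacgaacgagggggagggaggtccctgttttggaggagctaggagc
ADAM19: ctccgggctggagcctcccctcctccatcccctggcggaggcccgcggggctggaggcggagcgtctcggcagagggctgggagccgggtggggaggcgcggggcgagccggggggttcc

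None of these 4 held TGANTCA or TATAAA within 250 bases before the start, so no base is in capitals. Their GC content over those bases was 74.8% for MMP15, 77.6% for MMP24, 68.4% for ADAM10 and 76.4% for ADAM19, against 33.6% for MMP7 and a median of 58.0% over all promoters in the table.

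The sheddase ADAM with the highest FPKM was ADAM9 in the refractory tumour and ADAM10 in the untreated one. ADAM10 (chromosome 15, 58588807 to 58749978, minus strand), the enzyme that cuts NOTCH receptors, EGF, betacellulin and HER2 itself at the cell surface, had 23628 counts in the refractory and 94614 in the untreated tumour. At 398 CPM in the refractory and 1237.5 CPM in the untreated tumour it was 3.11-fold lower (95% interval 3.06 to 3.15). On the length-scaled values it came after TIMP1 and ADAM9 in the refractory tumour, at 83.8 FPKM, and was the highest of all members in the untreated tumour, at 265 FPKM.

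ADAM9 (meltrin gamma), a sheddase with a broader and less settled set of substrates, was higher. It had 28929 counts in the refractory and 13075 in the untreated tumour, or 488 and 171 CPM in the refractory and untreated tumours, a ratio of 2.85 (95% interval 2.79 to 2.91). The FPKM of ADAM9 over that of ADAM10 was 1.51 in the refractory and 0.171 in the untreated tumour. Of the summed FPKM of the 9 sheddase ADAMs, 255 in the refractory and 368 in the untreated tumour, the 2 genes together took 82.6% in the refractory and 84.3% in the untreated tumour. Their order changed far more than their joint share.

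**Figure D3:**
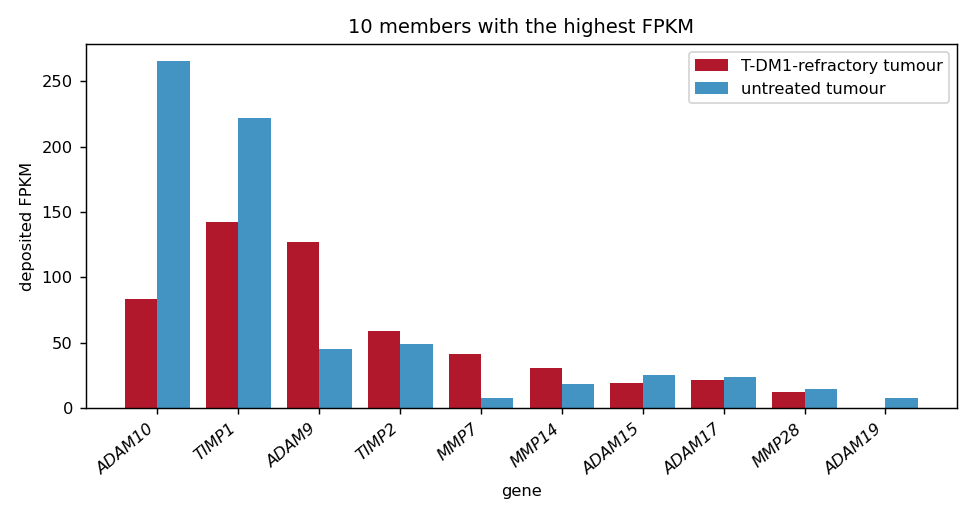
Deposited FPKM of the 10 members with the highest FPKM in either library, refractory in red and untreated in blue, 1 library each. ADAM10 stands at 83.8 in the refractory and 265 FPKM in the untreated tumour, and ADAM9 at 127 and 45.2 FPKM in the refractory and untreated tumours.

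ADAM17 (TACE), which releases TNF, amphiregulin and TGF-alpha, was at 70.3 CPM in the refractory and 76.8 CPM in the untreated tumour, a ratio of 0.916 (95% interval 0.880 to 0.953). ADAM15, a sheddase with an integrin-binding motif, was at 51.0 CPM in the refractory and 65.6 CPM in the untreated tumour. Neither was near 2-fold. ADAM8, an enzyme typical of leukocytes and some carcinomas, stood at 5.85 CPM in the refractory and 3.27 CPM in the untreated tumour, a ratio of 1.79 (95% interval 1.52 to 2.11).

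ADAM28, found in lymphocytes and in carcinomas, was low in both tumours and higher in the refractory one, with 251 counts in the refractory and 19 in the untreated tumour, a ratio of 17.0 (95% interval 10.7 to 28.8). Beside it, and beside ADAM8, the leukocyte integrin gene ITGAM stood at 3.32 CPM in the refractory and 0.419 CPM in the untreated tumour, the pan-leukocyte gene PTPRC at 0.287 and 0.0654 CPM in the refractory and untreated tumours, and the lymphocyte genes CD3E and MS4A1 at 0 counts in both. As for the remaining leukocyte markers, CD14 was at 1.43 CPM in the refractory and 0.445 CPM in the untreated tumour. CSF1R and LYVE1 each had 3 counts in the refractory and 0 in the untreated tumour. CD163 went the other way, with 1 count in the refractory and 4 in the untreated tumour. Leukocytes in these tumours would be cells of the mouse host, and whether any of their reads were counted on human genes was not tested. The mean transcript length implied by counts and FPKM was 2469 bases in the refractory and 2940 bases in the untreated tumour for ADAM28, which has a long membrane-bound and a short secreted form. Of 20 described members with at least 10 counts in both libraries, 1 (ADAM28) differed by over 10% in implied length, where 3.68% of 13746 such genes did. The untreated length rests on 19 reads.

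ADAM19 (meltrin beta), a sheddase of neuregulins and other ligands, had the largest decrease of all described members. It had 6 counts in the refractory and 3514 in the untreated tumour, or 0.101 and 46.0 CPM in the refractory and untreated tumours, 454-fold lower (95% interval 209 to 1239). CYFIP2, a cytoskeletal regulator gene whose span overlaps that of ADAM19 (chromosome 5, 157395534 to 157575775, minus strand) on the other strand, was lower as well, with 53 counts in the refractory and 6162 in the untreated tumour. NIPAL4, a magnesium transporter gene that overlaps it too, stood at 5.16 CPM in the refractory and 37.3 CPM in the untreated tumour.

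Among ADAMs that lack an active proteinase site, ADAM22, a neuronal receptor of LGI proteins, was higher, with 168 counts in the refractory and 64 in the untreated tumour (ratio 3.38, 95% interval 2.52 to 4.59). Its relative ADAM23 had 1 count in the refractory and 38 in the untreated tumour, 29.5-fold lower (95% interval 4.98 to 1195) at levels under 1 CPM in both. ADAM21, mainly a testis gene, stood at 0.910 CPM in the refractory and 1.67 CPM in the untreated tumour. ADAM20P1, a pseudogene that overlaps ADAM21, was at 2.12 CPM in the refractory and 3.22 CPM in the untreated tumour, and reads of such close copies are uncertain.

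ADAMTS genes were few and mostly low, and their summed FPKM was 9.09 in the refractory and 8.89 in the untreated tumour. ADAMTS14, a procollagen N-proteinase, was the most abundant of them, at 37.2 CPM in the refractory and 21.9 CPM in the untreated tumour, a ratio of 1.70 (95% interval 1.59 to 1.81). ADAMTS13, the protease of von Willebrand factor and usually a product of liver, was at 6.42 CPM in the refractory and 8.70 CPM in the untreated tumour.

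ADAMTS15, a proteoglycanase of versican and aggrecan (chromosome 11, 130448974 to 130476641), had 22 counts in the refractory and 575 in the untreated tumour and was 20.3-fold lower (95% interval 13.3 to 32.6). ADAMTS17, an enzyme of fibrillin microfibrils, had 4 counts in the refractory and 172 in the untreated tumour and was 33.4-fold lower (95% interval 12.8 to 124). Its FPKM was 0.0204 in the refractory and 0.388 in the untreated tumour, and the implied length 3270 bases in the refractory, on those 4 counts, and 5858 bases in the untreated tumour. ADAMTS7, which cuts cartilage oligomeric matrix protein, stood at 0.185 CPM in the refractory and 1.10 CPM in the untreated tumour. With 1 CPM added its log2 was -0.82, and with 0.1 CPM added it was -2.07 and past 2-fold. ADAMTS6 was at 0.826 CPM in the refractory and 1.48 CPM in the untreated tumour. ADAMTS9, another proteoglycanase, had 0 counts in the refractory and 14 in the untreated tumour, at least 3.62-fold lower with 3 counts as the floor.

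TIMP1 and TIMP2 made up nearly all inhibitor RNA. TIMP1 (chromosome X, 47582313 to 47586789) was at 90.2 CPM in the refractory and 140.6 CPM in the untreated tumour, 1.56-fold lower (95% interval 1.51 to 1.61). TIMP2, which also helps MMP14 to activate pro-MMP2, was at 201 CPM in the refractory and 164 CPM in the untreated tumour, a ratio of 1.22 (95% interval 1.19 to 1.26). By FPKM TIMP1 stayed ahead of TIMP2 in both, at 2.41 times its level in the refractory and 4.52 times in the untreated tumour.

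The other inhibitors were scarce. TIMP3, the matrix-bound inhibitor that also acts on ADAM17 and ADAMTS enzymes, had 0 counts in the refractory and 20 in the untreated tumour, at least 5.17-fold lower with the refractory library set to 3 counts. TIMP4 had 4 counts in the refractory and 85 in the untreated tumour, 16.5-fold lower by plain CPM (95% interval 6.21 to 61.9), and it passed 2-fold with 0.1 CPM added (log2 -2.86) but not with 1 CPM. SYN2, in whose span TIMP4 lies on the other strand, had 1 count in the refractory and 93 in the untreated tumour. The summed MMP FPKM over the summed TIMP FPKM was 0.498 in the refractory and 0.162 in the untreated tumour. For MMP14 over TIMP2 the same ratio was 0.523 in the refractory and 0.371 in the untreated tumour.

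In the authors' deposited table, 13 of the 69 members had p under 0.05, beside 7.20% of 29972 genes. Of the 11 members past 2-fold, 7 were among these 13. The same share over all genes past 2-fold was not computed. In the authors' deposited table p was 1.24e-08 for ADAM19, 2.06e-07 for MMP1 and 0.0374 for MMP7. By contrast, the abundant sheddases ADAM10 and ADAM9 had p of 0.138 and 0.169 in the authors' deposited table, and MMP15 had 0.132. Those p-values set a single library against another and come from the same counts, so they are no separate support.

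Chromosomal neighbours of the described members were compared with them, taking the 10 described genes on each side by coding start. The median log2 of these 20 neighbours lay between -0.21 (ADAMTS7) and 0.28 (MMP24), so none of these medians was past 2-fold. ADAM10 at -1.63 had neighbours with a median of -0.15, of which 4 were higher and 4 lower. ADAM9 at 1.51 had neighbours with a median of -0.04, 1 higher and 1 lower. For ADAM19 the median was -0.03, with 4 of the 20 lower and 0 higher, CYFIP2 the lowest at -5.43. MMP24 had 4 higher and 0 lower neighbours. Over all described genes 9.80% were higher and 10.98% lower.

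**Figure D4:**
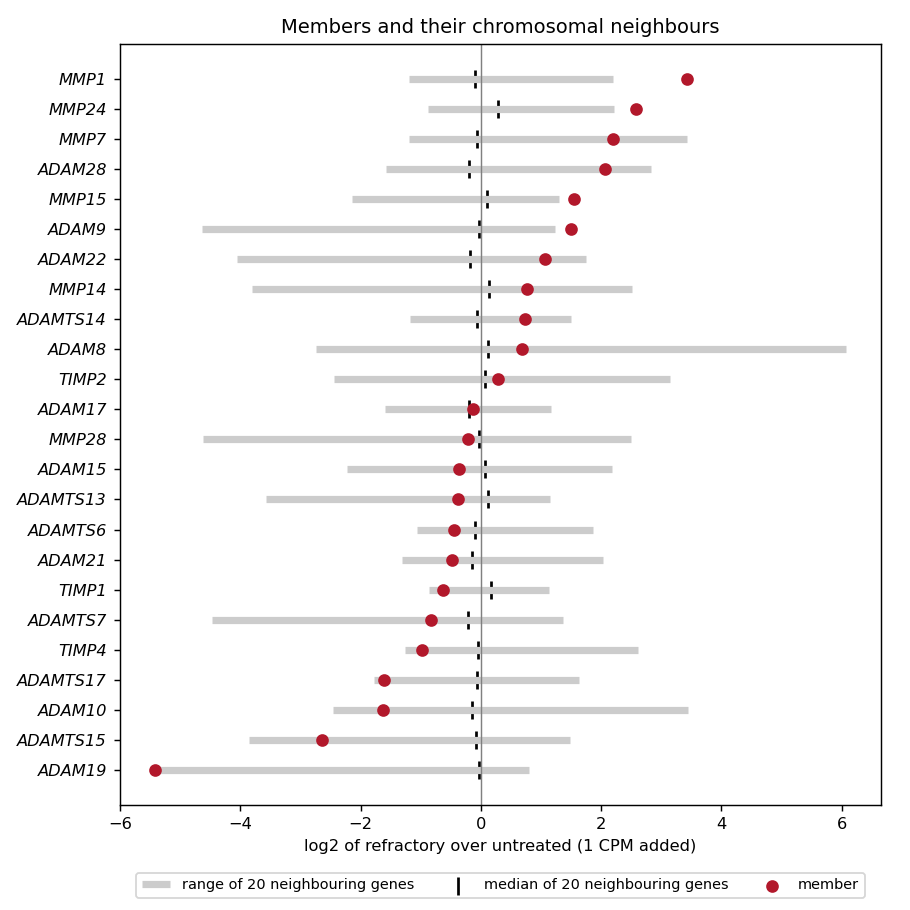
Log2 of refractory over untreated with 1 CPM added, for each described member (red points) and for its 20 nearest described genes (grey bar, lowest to highest; black mark, median). All medians lie between -0.21 and 0.28, while members run from -5.41 (ADAM19) to 3.43 (MMP1).

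Genes that activate or steer the ADAMs were higher in 5 of 12 described cases and lower in 0, beside 9.80% and 10.98% of all described genes. Their median log2 was 0.19, beside 0.03 for all described genes. PCSK5, a proprotein convertase that can remove propeptides, stood at 30.5 CPM in the refractory and 3.81 CPM in the untreated tumour, a ratio of 8.02 (95% interval 7.09 to 9.11). The difference was smaller on the length-scaled values, 4.21 FPKM in the refractory and 0.974 FPKM in the untreated tumour, with implied transcript lengths of 7193 bases in the refractory and 3944 bases in the untreated tumour. Its relative PCSK6 was at 33.0 CPM in the refractory and 9.95 CPM in the untreated tumour. TSPAN15, a tetraspanin that binds ADAM10 and directs it to certain substrates, was at 64.6 CPM in the refractory and 18.3 CPM in the untreated tumour, a ratio of 3.52 (95% interval 3.31 to 3.75).

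Further tetraspanin partners of ADAM10 and the partners of ADAM17 are named here after their values were seen. TSPAN5 stood at 17.8 CPM in the refractory and 7.59 CPM in the untreated tumour, and TSPAN33, at 2.87 and 0.929 CPM in the refractory and untreated tumours, was just past the limit. RHBDF1 and RHBDF2, the iRhoms that carry ADAM17 to the surface, were at 27.1 and 18.1 CPM in the refractory tumour, against 53.6 and 36.2 CPM in the untreated tumour, and with 1 CPM added neither passed 2-fold. FURIN, a convertase of the secretory pathway, stood at 60.1 CPM in the refractory and 98.4 CPM in the untreated tumour.

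Of 26 described targets of shedding, 3 were higher and 3 lower, with a median log2 of 0.19. These shares are near those over all described genes, 9.80% higher and 10.98% lower. AREG (amphiregulin), a ligand freed by ADAM17, was 10.4-fold higher (95% interval 9.61 to 11.3), CX3CL1, a membrane chemokine, 4.76-fold and HBEGF 4.02-fold higher. TGFA (TGF-alpha), which ADAM17 also releases, did not pass 2-fold, at 90.1 CPM in the refractory and 152 CPM in the untreated tumour. Of the ligands usually freed by ADAM10, EGF and BTC were lower. EGF had 0 counts in the refractory tumour and was at least 81.7-fold lower than in the untreated one, and BTC, betacellulin, stood at 0.893 CPM in the refractory and 4.20 CPM in the untreated tumour. ALCAM, an adhesion protein, was at 69.2 CPM in the refractory and 309 CPM in the untreated tumour. ERBB2 differed little, with 7975 CPM in the refractory and 7267 CPM in the untreated tumour. These are transcript levels, and shedding itself was not measured.

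Genes of plasminogen activation, which can switch on several pro-MMPs, were higher in 3 of 7 described cases and lower in 1, beside 9.80% and 10.98% of all described genes (median log2 0.03). PLAU (urokinase) stood at 33.4 CPM in the refractory and 1.52 CPM in the untreated tumour, a ratio of 22.0 (95% interval 18.3 to 26.8). The urokinase receptor gene PLAUR was 2.14-fold higher. PLAT (tissue plasminogen activator) went the other way, at 1.28 CPM in the refractory and 56.0 CPM in the untreated tumour.

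Inhibitors and inducers outside the TIMP family were higher in 0 and lower in 2 of 5 described cases, beside 9.80% and 10.98% of all described genes (median log2 -0.48). SPOCK1 (testican-1), a proteoglycan reported to restrain membrane-type MMPs, stood at 1.90 CPM in the refractory and 13.0 CPM in the untreated tumour. A2M, the general protease trap alpha-2-macroglobulin, had 1 count in the refractory tumour and was at 1.07 CPM in the untreated tumour. RECK, a membrane inhibitor of MMPs, had 0 counts in both.

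ADAMTS-like proteins and astacin proteases were higher in 2 and lower in 1 of 5 described cases, beside 9.80% and 10.98% of all described genes (median log2 0.54). ADAMTSL4, a microfibril protein without a protease domain, stood at 63.4 CPM in the refractory and 11.2 CPM in the untreated tumour, a ratio of 5.65 (95% interval 5.24 to 6.09). PAPLN (papilin) was 3.23-fold higher, and ADAMTSL2 was at 0.253 CPM in the refractory and 1.88 CPM in the untreated tumour.

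Matrix proteins that these enzymes cut were higher in 3 and lower in 3 of 12 described cases, beside 9.80% and 10.98% of all described genes (median log2 -0.09). COL17A1, the collagen of hemidesmosomes whose outer part is released by ADAMs, stood at 453 CPM in the refractory and 21.0 CPM in the untreated tumour, a ratio of 21.5 (95% interval 20.5 to 22.7). HSPG2 (perlecan) was 3.52-fold higher. FN1 (fibronectin) was lower, at 16.1 CPM in the refractory and 259 CPM in the untreated tumour, and so were TNC (tenascin C), 4.28-fold, and VCAN (versican), the classical ADAMTS substrate, 4.70-fold.

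**Figure D5:**
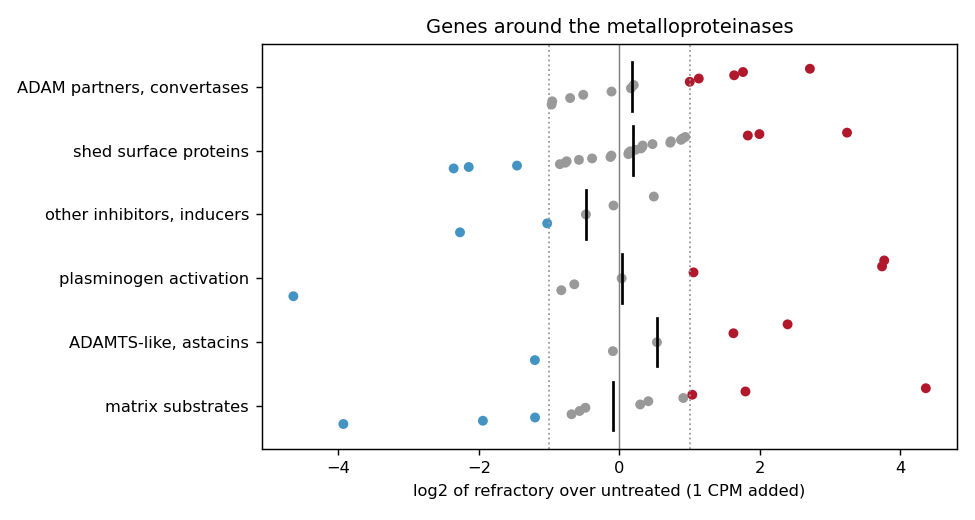
Log2 of refractory over untreated with 1 CPM added for the described genes of 6 lists around the metalloproteinases; red and blue points pass 2-fold upwards and downwards in the refractory tumour, grey points lie between, dotted lines mark 2-fold and black bars each list's median. Medians run from -0.48 (other inhibitors and inducers) to 0.54 (ADAMTS-like genes and astacins).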

How the data were processed

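The authors deposited 1 table of 29972 human genes. The read columns that the authors deposited hold expected counts, which are estimates and need not be whole. Its FPKM values are, per the file headers, scaled by gene length and library size, and its log2 fold change and p-value are the authors' comparison of both libraries. That log2 runs refractory over untreated: it lay within 0.0207 of the ratio computed here for 13007 genes above 50 reads in each library. Per the submitters' processing notes, edgeR 3.26.8, RSEM 1.2.28, STAR 2.7.0e and bcl2fastq 2.20 were used with the builds GRCh38 and GRCm38; their roles, the annotation and the dispersion behind the p-value are not given.

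Expected counts were rounded and TMM factors computed with edgeR 4.0.16 in R 4.3.3 (0.9904 for the refractory and 1.0097 for the untreated library). Groups came from the sample labels. With 1 library per group no test was run; a gene was described at 1 CPM or more in the higher library and called at 2-fold with 1 CPM added, which understates changes of low genes. Each CPM ratio has an exact 95% interval (Clopper-Pearson, conditional on the summed count of both libraries). It covers counting error only, as reads are not independent molecules. A count of 0 was set to a floor of 3 counts per library (0.0506 CPM in the refractory, 0.0392 CPM in the untreated library). The calculation was tested on simulated data. Gene spans are GENCODE 29 (GRCh38) and promoter sequences RefSeq GRCh38.p14, matched by symbol for 40 members; protein sequences were not used here.

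All described members are named, with full values for those past 2-fold, for the most abundant member of each role group and for the TIMPs; of the other lists, up to 3 called genes per direction, by size of log2, and others were picked with their values in view. The members, lists and rules were chosen with earlier results of these data known. One list symbol, NECTIN4, was not matched. The values of 2 called list genes are not reported here. Alternatives were 3 other scalings (DESeq2 1.42.0 median of ratios, total count, and total count leaving out the top 50 genes), pseudocounts of 0.1 and 5 CPM, no filter, a filter of 10 CPM, FPKM, and thresholds of 1.5-fold and 4-fold.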

Additional observations from a re-analysis of the deposited data

How the results depend on the processing

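No paired analysis was possible because each group has 1 library. The other scalings shifted the median log2 of all described genes by -0.03 to -0.01 and left the members at 7 higher and 4 lower. With 0.1 CPM added, ADAMTS7 and TIMP4 joined the lower members; with 5 CPM added, ADAM22, ADAM28 and ADAMTS17 were no longer past 2-fold. With genes of at least 10 CPM only, 2 members were lower and the members' median log2 was 0.51, and on the FPKM scale that median was 0.38, both of the opposite sign to the reported -0.17; these settings describe 14 and 18 members in place of 24. A 1.5-fold threshold gave 10 higher and 7 lower members, beside 19.4% and 18.9% of all described genes. A 4-fold threshold gave 4 higher and 2 lower, beside 2.54% and 3.56%. Of all described genes, 5.8% were higher and 5.93% lower with 5 CPM added. The same shares were 9.44% and 8.89% with the 10 CPM filter, and 8.68% and 8.98% on the FPKM scale. The list counts that follow take both directions together. Of the ADAM partners and convertases, 4 in place of 5 were past the limit under each of the other scalings and with the 10 CPM filter. With 5 CPM added and on the FPKM scale 3 of them were past the limit, with 8 at 1.5-fold and 1 at 4-fold. Of the shed surface proteins, 14 were past 1.5-fold and 3 past 4-fold. Of the other inhibitors and inducers, 1 was past the limit with 5 CPM added, with the 10 CPM filter, on the FPKM scale and at 4-fold. At 4-fold, 1 ADAMTS-like or astacin gene and 2 matrix genes were called. Members under 1 CPM rest on at most 70 reads per library, so their ratios have wide counting intervals.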
